A study of Mus musculus with 18 samples.

Results

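The genes described here are the early growth response genes Egr1, Egr2, Egr3 and Egr4, the orphan nuclear receptor genes Nr4a1, Nr4a2 and Nr4a3, and Nab2, which encodes a corepressor of EGR proteins. These 8 genes were taken by name from the 30583 genes of the deposited count tables, through their Ensembl identifiers. RNA was sequenced from 18 male C57BL/6JR mice, 12 weeks old, in 6 groups of 3 mice with 1 library per mouse. In 5 groups a myocardial infarction was made by ligating the left anterior descending coronary artery. Tissue was taken after 10 min in one group and after 1, 6, 24 or 72 h in the others. Sham mice, listed as 0 h, were operated on alike, but the thread was passed and left untied. All groups received sodium pentobarbital before surgery and isoflurane before death, and RNA is described as coming from the infarcted region of the left ventricle, with no separate description for sham hearts.

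EGR proteins are zinc finger transcription factors that bind GC-rich sites, and their genes belong to the immediate early genes, which are transcribed within minutes of a stimulus without new protein synthesis. The main routes to them run through ERK kinases to serum response factor (SRF) with its ETS partners, which act at CArG boxes, and through CREB, which acts at cAMP response elements (CREs). NAB2 binds EGR1, EGR2 and EGR3 and represses them, and its own gene is a target of EGR factors. NR4A receptors bind DNA without a known physiological ligand, are controlled mainly by how much of them is made, and act in inflammation and metabolism. In heart muscle, EGR1 and NR4A1 are known as early responders to ischaemia and adrenergic stimulation.

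Libraries held 18.2 to 25.1 M counts (M, mega), and levels are given as counts per M counts after TMM scaling (CPM), which adjusts each library for its composition. The labels name both myocardial tissue and cardiomyocytes, and no separation of cells is described. All 8 cardiomyocyte markers were found in every group, but so were endothelial (summed level 1253 to 1392 CPM in sham) and fibroblast markers (1906 to 2123 CPM), so the values are read as those of whole tissue. In such tissue, a change in the number of cells of a type and a change in RNA per cell cannot be told apart. The summed cardiomyocyte markers averaged 63874 CPM in sham, 36362 CPM at 24 h and 17689 CPM at 72 h, while monocyte and macrophage markers averaged 187, 517 and 2997 CPM. Replicate 1 at 6 h stood apart, with atrial markers at 172 CPM against 2.01 and 1.60 CPM in the other 6 h libraries and neutrophil markers at 752 CPM against 269 and 101.2 CPM. Replicate 3 at 24 h had neutrophil markers at 745 CPM against 173 and 43.0 CPM, and the lowest cardiomyocyte sum of its group (26967 CPM against 41051 and 41068 CPM).

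Promoter windows of 6 of the 8 genes were searched here, and Egr1 and Egr3 were not among them. The RefSeq table used (build GRCm38.p6) gives 250 bases before and 50 bases after each transcript start. The core of the CRE, TGACG, was found on either strand in windows of 5 of these 6 genes, all except Nab2, against 20.8% of the 32851 windows in the table. Nr4a1, Nr4a2 and Nr4a3 each held 4 copies, a number reached or passed by 0.231% of all windows. Egr4 and 3 of the 5 Egr2 windows held 2 copies, a number reached or passed by 5.01% of all windows. The stretches before the start are shown for the 3 Nr4a genes and for Egr2. Of the elements searched for, the windows of Nr4a2 and Nr4a3 held TGACG alone, while those of Nr4a1 and Egr2 held others too. Capitals mark TGACG or its reverse complement CGTCA, the CArG box of Egr2, and in Nr4a1 the ETS core CCGGAA and the EGR site GCGGGGGCG read as CGCCCCCGC.
Nr4a1, chr15:101266596-101266845, plus strand: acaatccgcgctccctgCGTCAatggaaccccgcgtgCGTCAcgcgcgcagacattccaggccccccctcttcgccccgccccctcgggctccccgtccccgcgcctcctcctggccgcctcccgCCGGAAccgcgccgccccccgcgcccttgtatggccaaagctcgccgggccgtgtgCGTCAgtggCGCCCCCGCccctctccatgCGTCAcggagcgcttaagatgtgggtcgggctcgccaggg
Nr4a2, chr2:57124004-57124253, minus strand: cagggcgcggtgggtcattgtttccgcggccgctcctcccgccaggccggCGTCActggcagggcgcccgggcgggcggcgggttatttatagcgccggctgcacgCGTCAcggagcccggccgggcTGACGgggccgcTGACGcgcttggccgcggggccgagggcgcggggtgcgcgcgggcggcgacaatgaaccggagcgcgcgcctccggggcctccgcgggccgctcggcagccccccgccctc
Nr4a3, chr4:48045055-48045152, plus strand: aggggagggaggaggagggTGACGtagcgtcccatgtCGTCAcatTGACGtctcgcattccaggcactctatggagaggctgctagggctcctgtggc
Egr2, chr10:67537619-67537868, plus strand: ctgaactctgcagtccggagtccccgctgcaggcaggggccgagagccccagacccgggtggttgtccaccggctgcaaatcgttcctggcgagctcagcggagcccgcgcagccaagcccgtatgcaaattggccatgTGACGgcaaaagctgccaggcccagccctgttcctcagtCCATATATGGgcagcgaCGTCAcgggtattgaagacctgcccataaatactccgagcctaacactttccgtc

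The Nr4a3 stretch ends after 98 bases because exon sequence of another transcript follows, and the fourth TGACG of its window lies in that exon. A CArG box was found in Egr2, here and in the window of an earlier start, and in 1.63% of all windows. The EGR site was found in Nr4a1 alone among the 6 genes and in 2.91% of all windows. CCGGAA was found in Nr4a1, in that earlier Egr2 window and in 14.9% of all windows. The full CRE TGACGTCA (1.79% of windows), the NR4A site AAAGGTCA (1.51%) and the EGR site GCGTGGGCG (0.612%) were found in none of the 6 genes. These matches describe letters in a window and are not measured binding.

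Of the 8 genes, 7 passed the filter on low counts and were tested with edgeR's quasi-likelihood test over 16311 genes, with an adjusted p under 0.05 as the threshold. At 10 min, 0 of the 7 passed in either direction (background: 0.0307% of all genes tested called higher and 0.0429% called lower). Unadjusted p was under 0.05 for 3 of the 7, namely Egr1, Egr2 and Egr3, and for 1144 of the 16311 genes tested. All 3 libraries at 10 min lay above all 3 sham libraries for each of Egr1, Egr2 and Egr3. The share of all genes whose libraries lay apart in this way was not computed. DESeq2 called 1 of the 7 at 10 min (Egr1, adjusted p = 0.0202), limma on FPKM called 0, and edgeR on the 6 sham and 10 min libraries alone called 2 (Egr1 and Egr2).

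At 1 h, 5 of the 7 were higher than in sham: Egr1, Egr2, Egr3, Nr4a1 and Nr4a2 (background 0.288% of all genes higher and 0.00613% lower). At 6 h all 7 were higher (background 16.3% higher, 12.2% lower). At 24 h, 6 were higher, Nr4a2 being the exception (background 23.7% higher, 20.2% lower). The Nr4a3 call at 24 h was lost in 5 of 27 alternative settings (without filter, and without sham replicate 1 or 2 or 24 h replicate 1 or 3, edgeR adjusted p up to 0.104), and Nr4a2 was called higher in 4 (with library totals, edgeR adjusted p = 0.0163; limma on FPKM with both pseudocounts; and without 24 h replicate 1). At 72 h, 5 were higher, namely the 3 Egr genes, Nab2 and Nr4a2 (background 34.2% higher, 32.2% lower). None of the 7 was called lower than sham at any of the 5 times by edgeR. The median log2 fold change of the 7 was 0.62, 2.63, 2.88, 1.35 and 1.38 at the successive times, against a median within 0.03 of 0 for all genes.

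**Figure D1:**
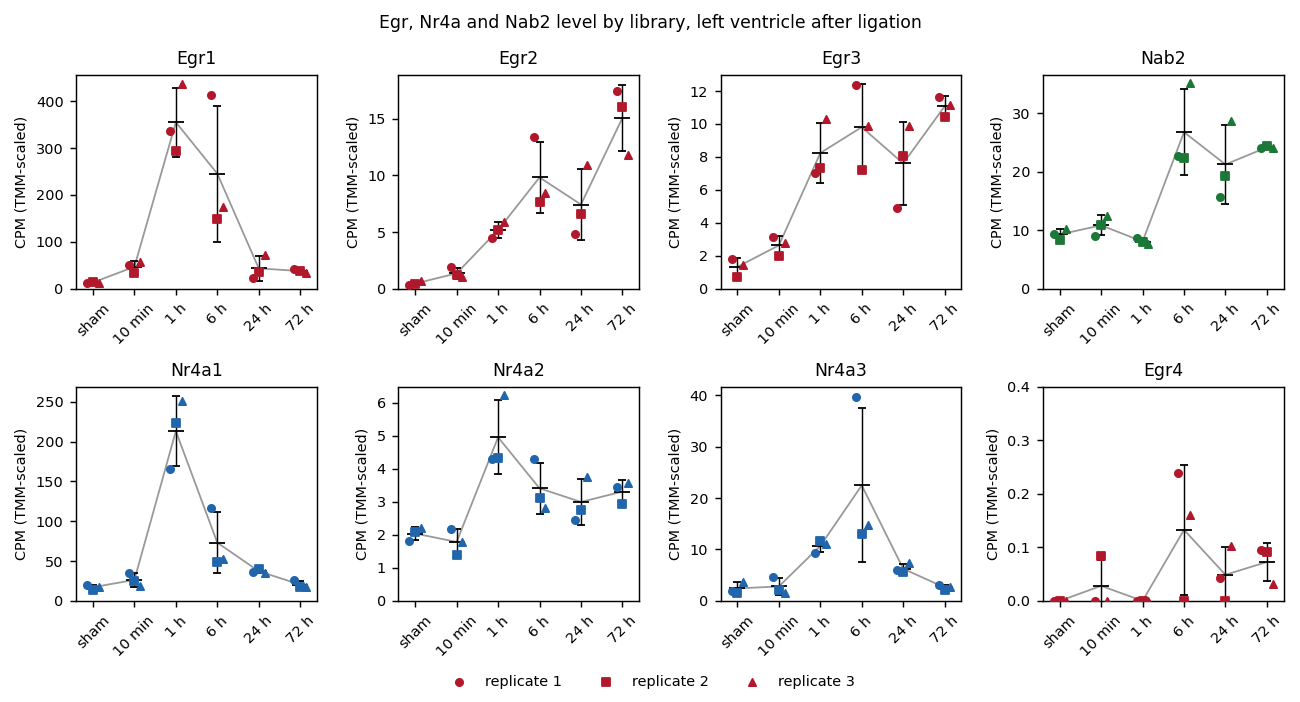
Level of each gene (CPM after TMM scaling, linear axes that differ between genes) in each of the 18 libraries by group; symbols are the 3 replicates, horizontal marks the group means, bars the SD (n = 3). By group mean, Egr1 and Nr4a1 peak at 1 h, Nr4a3 at 6 h, and Egr2 and Egr3 at 72 h. Of these peaks, only that of Nr4a1 differed from the next highest mean by edgeR's test. Nab2 is raised from 6 h, and Egr4 stays under 0.3 CPM.

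Egr1 (ENSMUSG00000038418, chr18:34859823-34864984, plus strand, GRCm38), the best studied EGR factor, had 11.7, 14.6 and 13.0 CPM in the 3 sham libraries and 49.9, 33.6 and 56.4 CPM at 10 min. It reached 336, 293 and 436 CPM at 1 h and 412, 149 and 175 CPM at 6 h. At 24 h it had 21.8, 35.6 and 72.4 CPM, and at 72 h 41.6, 36.8 and 33.7 CPM. Every library of the 5 ligated groups lay above every sham library, and the 1 h and 6 h libraries lay above all others, with replicate 1 at 6 h inside the range of 1 h. Egr1 was 27.1-fold higher at 1 h than in sham (log2 4.76, SE 0.486, edgeR adjusted p = 2.58e-04) and 18.7-fold higher at 6 h (adjusted p = 4.41e-05). It was still 2.85-fold higher at 72 h (log2 1.51, edgeR adjusted p = 0.00786).

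In the order of its means, Egr1 at 6 h and 1 h did not differ by the test (edgeR adjusted p = 0.379), nor did 72 h, 24 h and 10 min, its next levels down (adjusted p = 0.712 and 0.861). Without replicate 1 the 6 h mean was 162 CPM in place of 245 CPM, and without replicate 3 the 24 h mean was 28.7 CPM in place of 43.3 CPM. These are the libraries in which neutrophil markers were highest, and the part of those cells in the Egr1 level was not tested.

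Egr2 (ENSMUSG00000037868, chr10:67535475-67542188, plus strand), known for its roles in myelinating Schwann cells and in lymphocytes and macrophages, had 0.303, 0.363 and 0.666 CPM in sham and 1.87, 1.176 and 1.01 CPM at 10 min. At 1 h it had 4.49, 5.15 and 5.89 CPM and at 6 h 13.4, 7.66 and 8.42 CPM. It had 4.83, 6.58 and 10.9 CPM at 24 h and 17.4, 16.02 and 11.8 CPM at 72 h. No library after ligation overlapped sham, and the 72 h libraries were the highest except that replicate 1 at 6 h lay inside their range. Egr2 was 11.3-fold higher than sham at 1 h (log2 3.50, SE 0.394, edgeR adjusted p = 1.43e-04), 21.4-fold at 6 h and 32.9-fold at 72 h (log2 5.04, SE 0.378, adjusted p = 4.1e-09).

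Where Egr1 at 72 h had come down to a mean 9.50-fold under its 1 h level (edgeR adjusted p = 1.93e-05), Egr2 at 72 h stood 2.92-fold above its own 1 h level (adjusted p = 1.19e-04). Egr2 rose 2.04-fold from 24 h to 72 h (log2 1.03, SE 0.275, edgeR adjusted p = 0.00464). Its 6 h and 72 h means, neighbours in its order of levels, did not differ by the test (adjusted p = 0.0553). The summed monocyte and macrophage markers averaged 187 CPM in sham, 227 CPM at 10 min, 188 CPM at 1 h and 203 CPM at 6 h. They averaged 517 CPM at 24 h and 2997 CPM at 72 h. By library they ran from 179 to 200 CPM in sham and from 2642 to 3446 CPM at 72 h, where 6 of 6 markers were called higher. Schwann cell and nerve markers, another possible source, averaged 62.6 CPM in sum in sham and 99.4 CPM at 72 h. Of the 4 tested, 2 were called higher and 1 lower, with a median log2 fold change of 0.02 against 0.03 for all genes. At 72 h, 34.2% of all genes tested were called higher and 32.2% lower. The part of either cell type in the Egr2 level was not tested.

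Egr3 (ENSMUSG00000033730, chr14:70077203-70082614, plus strand), a factor known from muscle spindle development and lymphocytes, had 1.82, 0.726 and 1.42 CPM in sham and 3.11, 1.97 and 2.79 CPM at 10 min. It had 7.05, 7.34 and 10.3 CPM at 1 h and 12.4, 7.18 and 9.85 CPM at 6 h. It had 4.88, 8.03 and 9.90 CPM at 24 h and 11.6, 10.4 and 11.2 CPM at 72 h. The libraries of 1 h, 6 h and 24 h overlapped, while all 72 h libraries lay above those of 1 h and 24 h. The 72 h libraries overlapped those of 6 h, and these 2 times did not differ by the test (log2 0.18, edgeR adjusted p = 0.565). Nor did 72 h and 1 h (adjusted p = 0.158). From 24 h to 72 h the log2 difference was 0.55 (edgeR adjusted p = 0.0912), and it was called with library totals (0.93, adjusted p = 0.00548), with limma on FPKM and without replicate 3 at 24 h (0.77, edgeR adjusted p = 0.0224). Egr3 was 6.17-fold higher than sham at 1 h (log2 2.63, SE 0.314, edgeR adjusted p = 2.19e-04) and 8.31-fold higher at 72 h (adjusted p = 1.17e-07).

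Egr4 (ENSMUSG00000071341, chr6:85511121-85513589, minus strand), a family member known mainly from neurons and the germ line, had 19 counts in the 18 libraries together and did not pass the filter. Its counts were 0 in all sham and all 1 h libraries, at most 2 in a library at 10 min and at 24 h, at most 4 at 6 h and between 1 and 3 at 72 h. A count of 0 allows up to 3 counts, which is 0.0913 to 0.187 CPM depending on the library and covers counting error only. No difference in Egr4 was detectable at this depth.

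Nab2 (ENSMUSG00000025402, chr10:127660918-127668568, minus strand), the EGR corepressor, had 9.35, 8.25 and 10.2 CPM in sham, 9.09, 11.0 and 12.5 CPM at 10 min and 8.65, 7.94 and 7.58 CPM at 1 h. The libraries of both times overlapped those of sham, and neither time differed from sham by the test (edgeR adjusted p = 0.903 and 0.995). It then had 22.8, 22.3 and 35.3 CPM at 6 h, 15.7, 19.3 and 28.8 CPM at 24 h and 24.0, 24.4 and 24.2 CPM at 72 h. All 9 of these later libraries lay above all 9 earlier ones. Nab2 was 3.32-fold higher at 6 h than at 1 h (log2 1.73, SE 0.205, edgeR adjusted p = 2.56e-05), and 2.60-fold higher at 72 h than in sham (log2 1.38, adjusted p = 8.19e-06). Of the 7 tested genes, Nab2 alone was not highest in replicate 1 of the 6 h group. Of its 2941 exonic bases, 1050 overlap Gm16229, 151 overlap Nemp1 and 40 overlap Stat6 on the other strand, and reads there cannot be told apart, since the use of strand is not given in the sources used here.

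**Figure D2:**
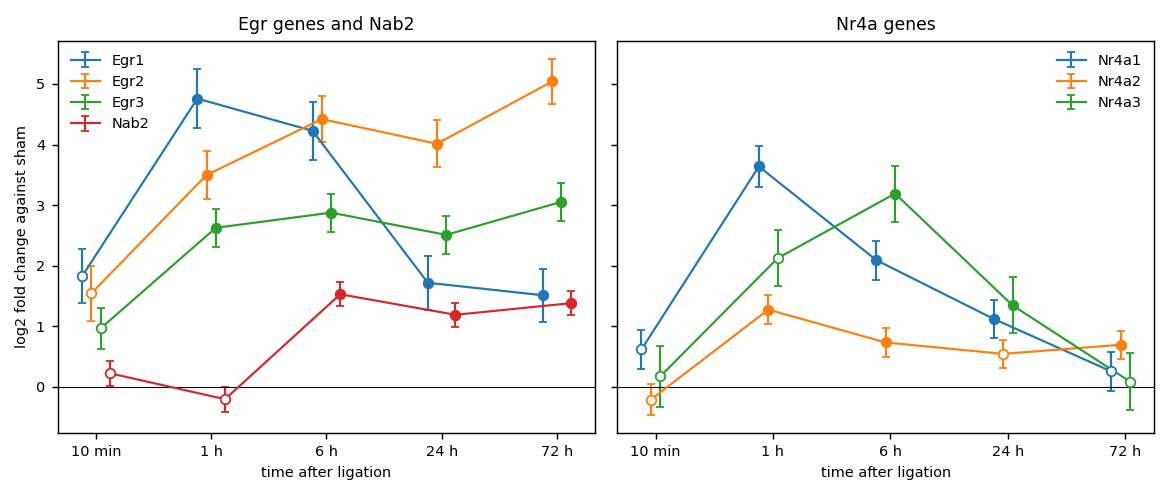
Log2 fold change of each tested gene against sham (edgeR, TMM scaling) at the 5 times after ligation; bars are the SE, filled points passed an adjusted p under 0.05 and open points did not. At 1 h Egr1 is at 4.76 and Nab2 at -0.20, and at 72 h Egr2 is at 5.04 while Nr4a1 and Nr4a3 are at 0.26 and 0.09.

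Nr4a1 (ENSMUSG00000023034, chr15:101254269-101274795, plus strand), the receptor also called Nur77, had 19.9, 13.6 and 17.8 CPM in sham and 35.4, 24.6 and 19.0 CPM at 10 min. It reached 165, 224 and 250 CPM at 1 h, then 117, 49.4 and 53.0 CPM at 6 h. It had 35.9, 40.4 and 35.5 CPM at 24 h and 25.6, 17.8 and 17.9 CPM at 72 h. The 1 h libraries stood above all others, each later time lay below the one before without overlap, and at 72 h the libraries again overlapped sham. Nr4a1 was 12.4-fold higher at 1 h than in sham (log2 3.64, SE 0.337, edgeR adjusted p = 1.13e-04). From 1 h to 6 h it fell by 1.55 on the log2 scale (SE 0.306, edgeR adjusted p = 0.00253).

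Nr4a1 stayed above sham at 24 h (2.18-fold, edgeR adjusted p = 0.0104) and did not differ from it by the test at 72 h (log2 0.26, adjusted p = 0.491). Scaled to library totals in place of TMM, the 72 h difference was 0.84 with an edgeR adjusted p of 0.0208. This scaling moves the median of all genes from 0.03 to 0.61 at 72 h. The later declines were smaller: it fell by 0.97 from 6 h to 24 h (adjusted p = 0.0292) and by 0.87 from 24 h to 72 h (adjusted p = 0.0303), and each of these calls was lost in 9 of 27 alternative settings. Without replicate 1 at 6 h the change from 6 h to 24 h was -0.46 with an edgeR adjusted p of 0.167.

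Nr4a2 (ENSMUSG00000026826, chr2:57106830-57124003, minus strand), the receptor also called Nurr1 and known for its role in dopamine neurons, had 1.82, 2.07 and 2.22 CPM in sham and 2.18, 1.39 and 1.79 CPM at 10 min. It had 4.30, 4.32 and 6.24 CPM at 1 h and 4.29, 3.11 and 2.82 CPM at 6 h. It had 2.46, 2.76 and 3.76 CPM at 24 h and 3.44, 2.92 and 3.56 CPM at 72 h. All libraries from 1 h on lay above all sham libraries, with the 1 h group highest. Nr4a2 was 2.42-fold higher at 1 h than in sham (log2 1.27, SE 0.234, edgeR adjusted p = 0.0151), a call lost without any one of the sham replicates or without replicate 3 at 1 h (adjusted p up to 0.145). Its differences from sham at 6 h and 72 h were 0.73 and 0.69 (adjusted p = 0.0274 and 0.0131). The call at 6 h was lost in 6 of 27 alternative settings, among them library totals, limma on FPKM and leaving out replicate 1 at 6 h (0.54, edgeR adjusted p = 0.151), and the call at 72 h without sham replicate 1 (adjusted p = 0.0523). On FPKM, scaled to library totals, its highest mean was at 72 h (1.14 ± 0.130 FPKM, SD, n = 3) and not at 1 h (1.11 ± 0.231 FPKM).

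Nr4a3 (ENSMUSG00000028341, chr4:48045153-48086447, plus strand), the receptor also called NOR-1, had 1.97, 1.56 and 3.73 CPM in sham and 4.73, 2.18 and 1.51 CPM at 10 min. It had 9.32, 11.6 and 11.1 CPM at 1 h and 39.7, 13.0 and 14.7 CPM at 6 h. It had 5.96, 5.52 and 7.27 CPM at 24 h and 3.06, 2.04 and 2.71 CPM at 72 h. The 6 h libraries stood above all others and the 1 h libraries came next, while 10 min and 72 h overlapped sham. Nr4a3 was 9.13-fold higher at 6 h than in sham (log2 3.19, SE 0.463, edgeR adjusted p = 1.86e-04) and fell by 1.84 from 6 h to 24 h (adjusted p = 0.00491).

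At 1 h Nr4a3 was 4.36-fold above sham with no overlap of libraries, but it missed the threshold (edgeR adjusted p = 0.0972). DESeq2 called it (adjusted p = 8.07e-05), and without replicate 1 at 6 h edgeR did so too (adjusted p = 0.00369). That library alone lifted the 6 h mean from 13.8 to 22.5 CPM, and Nr4a3 was also highest in the library with the most neutrophil markers of the 10 min group (replicate 1, 21.2 CPM against 8.10 and 5.70 CPM). The same held at 24 h (replicate 3). In sham (replicate 2) and at 1 h (replicate 1), the library with the most neutrophil markers had the lowest Nr4a3. At 72 h (replicate 3) it had the middle value. Nr4a3 at 6 h and at 1 h, its highest and next levels, did not differ by the test (edgeR adjusted p = 0.0729). Endothelial markers were also highest in replicate 1 of the 6 h group (1747 CPM against 1282 and 1396 CPM). Whether neutrophils, atrial tissue or endothelial cells bear on these values was not tested.

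The step from one time to the next, which uses no sham library, separated the genes further. From 10 min to 1 h, 5 of the 7 rose (Nr4a1, Egr1, Egr2, Egr3 and Nr4a2; background 0.307% of all genes in either direction), Nr4a1 by 8.11-fold and Egr1 by 7.63-fold; without replicate 2 or without replicate 3 at 10 min, 1 of the 7 was called. From 1 h to 6 h, Nab2 and Egr2 rose and Nr4a1 fell (background 24.5%); the Egr2 call was lost in 4 of 26 alternative settings, among them without replicate 1 at 6 h (log2 0.64, edgeR adjusted p = 0.155) and without replicate 1 or 2 at 1 h. From 6 h to 24 h, Egr1, Nr4a1 and Nr4a3 fell (background 27.8%), Egr1 by 2.51 on the log2 scale. From 24 h to 72 h, Egr2 rose and Nr4a1 and Nr4a3 fell (background 50.5%); without replicate 1 at 24 h, or without replicate 2 or 3 at 72 h, 1 of the 7 was called. The genes called in this step changed with scaling: with library totals Nr4a3 (-0.87, edgeR adjusted p = 0.0962) and Nr4a1 were not called, while Egr3 (0.93, adjusted p = 0.00548) and Nab2 (0.58, adjusted p = 0.0248) were called higher. With library totals, 7285 of all genes tested were called higher from 24 h to 72 h and 1651 lower. In the test of any difference from sham over the 5 times, all 7 passed, as did 78.4% of all genes tested. The shares of members at 24 h against 6 h and at 72 h against 24 h, 3 of 7 each, were thus not far from those of all genes.

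Levels can be compared between genes per length of transcript, for which the deposited FPKM values were used. In sham, Nr4a1 was the highest of the 8 (6.42 ± 1.25 FPKM, SD, n = 3), followed by Nab2 (2.93 ± 0.393) and Egr1 (2.71 ± 0.283), and the other 5 were each under 0.5 FPKM. At 1 h, Nr4a1 (78.3 ± 15.3 FPKM) and Egr1 (71.9 ± 13.7 FPKM) stood far above the rest, of which Nab2 was the highest at 2.49 ± 0.192 FPKM. At 72 h, Egr1 (11.6 ± 0.933), Nr4a1 (11.5 ± 2.24) and Nab2 (11.4 ± 0.352 FPKM) lay within each other's spread, with Egr2 next at 6.15 ± 1.05 FPKM.

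The makeup of the Egr family thus differed between early and late times. Egr1 made up 87.0 ± 4.60% of the summed Egr FPKM in sham, 95.9 ± 0.460% at 1 h and 54.5 ± 0.993% at 72 h (SD, n = 3). Egr2 made up 3.88 ± 1.61% in sham and 1.87 ± 0.294% after 1 h, then 16.8 ± 2.21% after 24 h and 28.8 ± 2.77% after 72 h. No library of the last 2 groups overlapped an earlier one in this share. The ratio of Egr2 to Egr3 averaged 0.491 ± 0.239 in sham and 0.825 ± 0.0849 after 1 h, and reached 1.77 ± 0.348 after 72 h. In the Nr4a family, Nr4a1 kept between 86.7% and 96.6% of the sum in every group mean. Nr4a3 had its highest share at 6 h (10.5 ± 1.38% against 2.03 ± 0.234% at 1 h), and Nr4a2 at 72 h (8.73 ± 1.51%).

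**Figure D3:**
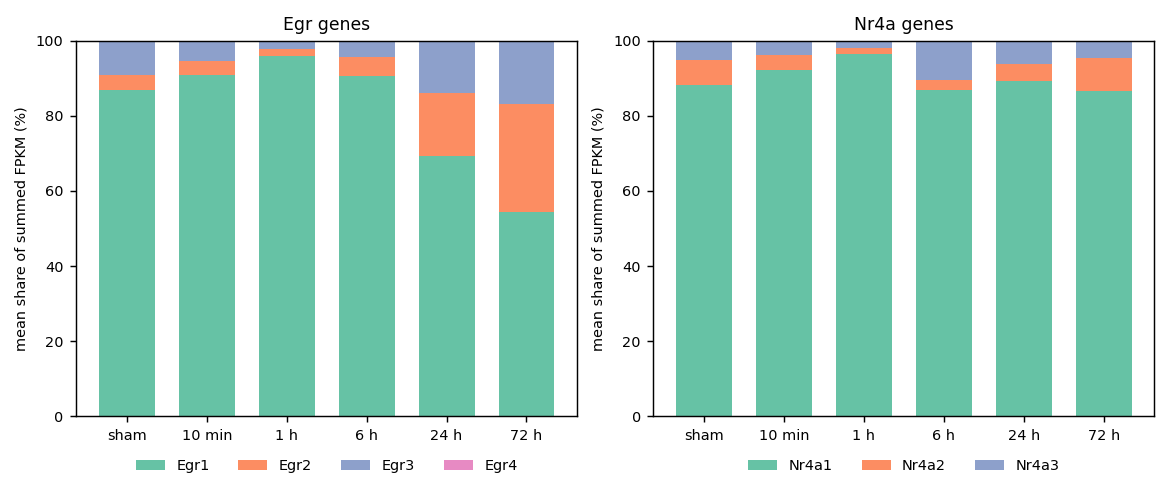
Mean share (%, n = 3 libraries per group) of each gene in the summed FPKM of the Egr genes (left) and of the Nr4a genes (right), by group. Egr1 is 95.9% of the Egr sum at 1 h and 54.5% at 72 h, where Egr2 is 28.8%; Nr4a1 holds 86.7% or more of the Nr4a sum throughout.

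Nab2 relative to Egr1, the corepressor beside its best known partner, was taken as the ratio of their FPKM within each library, which does not depend on library scaling. It averaged 1.09 ± 0.199 in sham (range 0.863 to 1.22, n = 3), 0.371 ± 0.114 at 10 min and 0.0357 ± 0.00799 at 1 h. It was 0.207 ± 0.113 at 6 h, 0.842 ± 0.245 at 24 h and 0.994 ± 0.108 at 72 h. The 10 min, 1 h and 6 h libraries all lay below every sham library, the 1 h libraries below all others, and the 24 h and 72 h libraries overlapped sham. At 72 h the ratio was thus close to that of sham while both genes were above their sham levels.

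**Figure D4:**
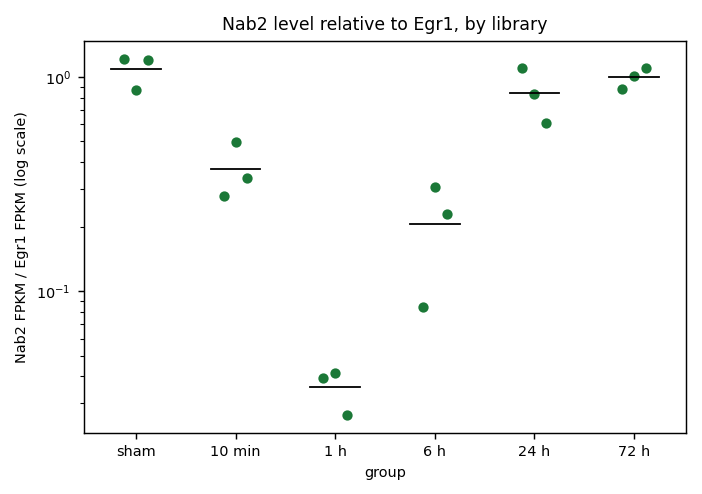
Ratio of Nab2 FPKM to Egr1 FPKM in each library (points) with the group mean (line), on a log axis, by group (n = 3). The mean ratio is lowest at 1 h (0.0357), against 1.09 in sham and 0.994 at 72 h.

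The upstream regulators of these genes were described from a list of 20 SRF, ETS, CREB and MEF2 family factors, their coactivators and ERK pathway kinases. At 10 min and 1 h, 0 of the 20 passed edgeR's test, and DESeq2 and limma called 0 as well. Unadjusted p was under 0.05 for 2 and 1 of the 20, against 1144 and 899 of all 16311 genes. At 6 h and at 24 h, 5 were higher and 2 lower. The background was 16.3% of all genes higher and 12.2% lower at 6 h, and 23.7% and 20.2% at 24 h. Without replicate 1 at 6 h, 3 were higher and 1 lower there. At 24 h the counts were 3 and 2 without replicate 3, and 9 and 1 with library totals. With library totals, 5558 of all 16311 genes were called higher at 24 h and 1805 lower. At 72 h, 8 were higher and 6 lower (background 34.2% higher, 32.2% lower), with a median log2 fold change of 0.06 against 0.03 for all genes. The counts at 24 h and 72 h were thus near the shares of all genes. Scaled to library totals, 16 were higher and 1 lower at 72 h, with a median of 0.65 against 0.61 for all genes. With that scaling, 9472 of all 16311 genes were called higher at 72 h and 2382 lower. Rps6ka1, a kinase downstream of ERK, had 8.87 ± 0.764 CPM in sham and 32.6 ± 1.46 CPM at 72 h (log2 1.88, edgeR adjusted p = 7.41e-09). Mrtfa, an SRF coactivator, rose by 1.35 on the log2 scale, and Mef2d, a factor that controls Nr4a1 in lymphocytes, fell by 0.94.

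Of 10 corepressors and binding partners of EGR and NR4A proteins, 0 passed edgeR's test at 10 min and 1 h (0 also by DESeq2 and limma). Unadjusted p was under 0.05 for 0 of them at both times, against 1144 and 899 of all 16311 genes. At 72 h, 2 were higher and 5 lower (background 34.2% of all genes higher, 32.2% lower), with a median of -0.30. Scaled to library totals, 5 were higher and 2 lower, with a median of 0.28. With that scaling, 9472 of all 16311 genes were called higher at 72 h and 2382 lower, with a median of 0.61. The sign of the list's median thus turned with the scaling, but it lay below the median of all genes under both. Rxrg, which encodes a retinoid X receptor (a class whose members can pair with NR4A1 and NR4A2), had 55.2 ± 2.14 CPM in sham and 15.8 ± 2.90 CPM at 72 h (log2 -1.81, edgeR adjusted p = 2.36e-06). Fhl2, a cofactor abundant in heart muscle, fell by 1.19. Nab1, the other EGR corepressor, had 28.5 ± 0.415 CPM in sham and 39.3 ± 4.39 CPM at 72 h (log2 0.47, adjusted p = 0.00361), a smaller difference than that of Nab2, though the 2 differences were not tested against each other.

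Genes known from other work as targets of EGR1 (18, all tested) were called higher for 9, 13 and 10 genes and lower for 0, 1 and 3 genes at the 3 times from 6 h on, against 16.3%, 23.7% and 34.2% of all genes higher and 12.2%, 20.2% and 32.2% lower. Scaled to library totals, 14 were higher and 2 lower at 72 h. With that scaling, 9472 of all 16311 genes were called higher at 72 h and 2382 lower. At 10 min and at 1 h, the time of the highest Egr1 mean, 0 were called by edgeR. Unadjusted p was under 0.05 for 0 and 3 of the list, against 1144 and 899 of all 16311 genes. DESeq2 called 0 and 2, and limma 0 at both times. The median log2 fold change of the list was 0.04, 0.71 and 1.22 at 1, 6 and 24 h. Without replicate 3 the 24 h median was 0.56, with 11 called higher and 1 lower. Timp1, an inhibitor of matrix metalloproteinases, had 1.69 ± 0.286 CPM in sham and 174 ± 76.3 CPM at 24 h (log2 6.68, SE 0.345, edgeR adjusted p = 2.18e-08). The chemokine gene Cxcl2 had 12.0, 2.02 and 140 CPM at 24 h and the cytokine gene Il1b 8.85, 4.63 and 109 CPM, against sham means of 0.166 and 0.487 CPM. For both, most of the 24 h mean came from replicate 3, the library richest in neutrophil markers, and without it the means were 7.01 and 6.74 CPM.

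Genes known as NR4A targets in metabolism and inflammation (15, all tested) split in direction. At 6 h, 7 were higher and 1 lower (background 16.3% of all genes higher, 12.2% lower). At 24 h, 5 were higher and 6 lower (background 23.7% higher, 20.2% lower). At 72 h, 3 were higher and 10 lower (background 34.2% higher, 32.2% lower), with a median of -1.23 against 0.03 for all genes. Scaled to library totals, 3 were higher and 8 lower at 72 h with a median of -0.65, against 0.61 for all genes. With that scaling, 9472 of all 16311 genes were called higher at 72 h and 2382 lower. Without replicate 3 at 24 h the counts there were 3 and 5. At 10 min and 1 h, 0 passed edgeR's test (3 and 4 with an unadjusted p under 0.05, against 1144 and 899 of all 16311 genes). DESeq2 called 2 and 1, and limma with a pseudocount of 0.1 called 0 and 1. The higher ones at 72 h included Spp1, the osteopontin gene of activated macrophages and fibroblasts (1119 ± 139 CPM against 0.157 ± 0.0948 CPM in sham), and the chemokine receptor gene Cxcr4 (44.1 ± 3.77 against 7.74 ± 1.70 CPM). Fbp2, a muscle fructose bisphosphatase, fell by 2.35 on the log2 scale (34.2 ± 4.47 CPM in sham, edgeR adjusted p = 3.79e-07). Cardiomyocyte markers fell over the same time (8 of 8 called lower at 72 h), and their part in the lower values was not tested.

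The other immediate early genes, 25 in the list and 24 tested, were called higher for 15, 23, 19 and 12 genes at the 4 times from 1 h on. The background at these times was 0.288%, 16.3%, 23.7% and 34.2% of all genes higher. At 72 h, 2 were called lower (background 32.2%). Scaled to library totals, 17 were higher and 0 lower. With that scaling, 9472 of all 16311 genes were called higher at 72 h and 2382 lower. Without replicate 1 at 6 h the counts at 1 h and 6 h were 17 and 22. At 10 min, 0 passed edgeR's test (3 without replicate 1 at 6 h), and 9 had an unadjusted p under 0.05, against 1144 of all 16311 genes. DESeq2 called 2, and limma called 0 or 1 depending on the pseudocount. Fos, part of the AP-1 factor, had 1.71 ± 0.436 CPM in sham and 84.5 ± 64.9 CPM at 6 h (log2 5.62, SE 0.628, edgeR adjusted p = 4.48e-05). Its mean was higher at 1 h (219 ± 58.2 CPM, log2 7.00, edgeR adjusted p = 1.43e-04). At 6 h, Atf3, a stress-induced repressor, was 5.17 above sham on the log2 scale and Arc, an activity-regulated gene best known from neurons, 4.90.

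Across the 18 libraries, the genes whose log2 CPM followed each member most closely were named by Pearson's r, leaving out the members themselves. The libraries share groups, so these values describe the time course and are given without a p-value. For Egr1 they were Zfp36 (r = 0.98, Spearman's rho = 0.92), Fos (0.97, 0.95) and Ier2 (0.97, 0.95), all immediate early genes. For Nr4a1 they were Fosb (0.94, 0.84), Zfp36 (0.94, 0.92) and Apold1, an endothelial early response gene (0.93, 0.92). For Nr4a3 they were Csrnp1 (0.95, 0.92), Sik1 (0.94, 0.89) and Otud1 (0.94, 0.88), each highest at 6 h in the mean, and for Nr4a2 Nfkbiz (0.91, 0.94), Atf3 (0.88, 0.90) and Jun (0.88, 0.88).

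Dusp2, a MAP kinase phosphatase of immune cells, came first for both Egr2 and Egr3 (r = 0.95 and 0.91), followed by Tent5a (0.93) and the chemokine gene Ccl3 (0.92) for Egr2 and by Nfkbiz (0.90) and the prostaglandin receptor gene Ptger4 (0.89) for Egr3. For Nab2 the closest were the receptor gene Ltbr (r = 0.97), the adaptor gene Myd88 (0.96) and the receptor gene Tnfrsf1a (0.95), whose means, like that of Nab2, differed little between sham, 10 min and 1 h and were higher from 6 h on. Among the members, Egr2 and Egr3 were the closest pair (r = 0.96) and Egr1 and Nr4a1 followed (0.90), and Egr1 and Nab2 were among the least alike (r = 0.05, rho = -0.001).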

How the data were processed

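Poly(A)-selected RNA of 18 mice was sequenced. Whole-number counts per Ensembl gene were deposited for each sample; per the submitters' processing notes, cutadapt 1.18, HISAT2 2.1.0, featureCounts and mm10 were used, and the use of strand is not given in the sources used here. The authors also deposited FPKM, which scale counts to gene length and library total. Within the 6 h group, FPKM of replicate 2 match the counts of replicate 3 and the reverse, which leaves group values unchanged.

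Tests on counts used edgeR 4.0.16 under R 4.3.3 (filterByExpr, TMM, robust quasi-likelihood fit of all 18 libraries with 1 mean per group, two-sided, Benjamini-Hochberg adjustment over 16311 genes, threshold 0.05). The filter removed 14272 genes. Alternatives used DESeq2 1.42.0 and limma 3.58.1 on log2(FPKM + 1) and log2(FPKM + 0.1), other scalings and filters, a replicate block, and each library left out. On simulated counts at 1 h, 100 of 100 genes changed 8-fold and 75 of 100 changed 2-fold were recovered among 16311. Depth was 18.2 to 25.1 M counts; no molecular identifiers are described, so count limits cover counting error only. Symbols (30489 of 30583 IDs) and coordinates come from GENCODE M21 (GRCm38), promoters from RefSeq (GRCm38.p6).

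All 8 members are described. Beside them, the 3 genes of highest Pearson's r with each member (log2 CPM, prior count 2, no predicted genes) and the 3 largest changes of each list at the time of most calls are named. Members, lists and alternatives were chosen with earlier results of these data known, so no pattern is independent support; the other settings for list counts were chosen after seeing the data. Protein sequences were not analysed here.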

Additional observations from a re-analysis of the deposited data

Results flagged for a closer look

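For several genes the effect of ligation differed between successive times. The shared sham mean cancels, so these are the same steps as described above and add no separate support. Of all genes tested, 0.307%, 24.5%, 27.8% and 50.5% were called in the 4 successive steps. For the genes named below, the difference between the effects at 2 times passed edgeR's test and the libraries of both times did not overlap. From 10 min to 1 h this difference, on the log2 scale, was 3.02 for Nr4a1, 2.93 for Egr1, 1.95 for Egr2, 1.66 for Egr3 and 1.48 for Nr4a2. From 1 h to 6 h it was 1.73 for Nab2 and 0.92 for Egr2, and -1.55 for Nr4a1. From 6 h to 24 h it was -2.51 for Egr1, -1.84 for Nr4a3 and -0.97 for Nr4a1. From 24 h to 72 h it was 1.03 for Egr2, -1.26 for Nr4a3 and -0.87 for Nr4a1. Nr4a1 was the only one of the 7 genes to pass in all 4 steps. Its last 2 steps each lost the call in 9 alternative settings. The Egr2 steps from 10 min to 1 h and from 1 h to 6 h lost it in 5 and 4. The Nr4a3 step from 24 h to 72 h lost it in 8.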

How the results depend on the processing

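Of 1692 fold changes under alternative settings, 1582 kept their direction and their side of the threshold, 61 lost the call, 36 gained it and 13 turned direction. The calls against sham at 6 h of Egr1, Egr2, Egr3, Nr4a1, Nr4a3 and Nab2 held under each alternative run for them. Members called at 10 min numbered 1 with DESeq2 and 2 with only the 6 libraries compared (0 in the fit of all libraries); at 24 h against 6 h, 0 with only the 6 libraries compared (3); at 72 h against 24 h, 1 without a filter on low counts (3). Leaving out each library in turn gave 1 to 6 at 1 h against 10 min (5) and 1 to 3 at 72 h against 24 h (3).

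All values that turned direction belonged to differences that were not called. Egr1 at 72 h against 24 h (-0.21) was 0.17 with library total scaling and 0.30 and 0.35 with limma on FPKM (pseudocounts 1 and 0.1), and ran from -0.53 to 0.38 with 1 library left out, highest without 24 h replicate 3. Nr4a2 at 24 h against 6 h (-0.19) was 0.12, 0.0519 and 0.10 under the same 3 settings and ran from -0.38 to 0.00485, highest without 6 h replicate 1. Nr4a3 against sham ran from -0.39 (without 10 min replicate 1) to 0.64 (without sham replicate 3) at 10 min, and from -0.14 (without sham replicate 2) to 0.56 (without sham replicate 3) at 72 h. The cause was not tested.

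Over all genes, calls at 10 min numbered 12 and between 0 and 386 under alternatives; at 1 h 48, 95 with DESeq2 and 208 with only the 6 libraries compared; at 1 h against 10 min 50, 133 and 262; at 24 h against 6 h 4541, 1035 with only those 6 and 6880 with library totals. Without 6 h replicate 1, 2937 in place of 4639 genes were called at 6 h and 2507 in place of 4003 at 6 h against 1 h. With library totals, 40.6%, 75.5% and 79.9% of calls at 6, 24 and 72 h were higher, against 57.2%, 54.0% and 51.4% with TMM, and the median of all genes moved to -0.12, 0.20 and 0.61. By Spearman's rho, 2 of the 3 closest genes stayed for Egr1 and Nr4a2, 1 for Nr4a1 and Nr4a3, and 0 for Egr2, Egr3 and Nab2.

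The labels do not say what same-numbered libraries share, and the main fit used no pairing. Over 45 same-numbered pairs the correlation of deviations ran from -0.256 to 0.252 (median 0.0351, against -0.0128 for different numbers). Of the 18 libraries, 9 were closest to their own number, and this check cannot tell whether such libraries share anything. A replicate block left the member counts at 0, 5, 7, 6 and 5 against sham and at 5, 3, 3 and 3 between successive times. No value over any time was computed with DESeq2 or with only the 6 libraries compared, and requiring 10 counts in all libraries left Egr2 untested. Depth limits Egr4, and Egr2 in sham (6 to 15 counts per library).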
